A study of Homo sapiens with 6 samples.

Results

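Levels of 10 genes of the AP-1 group were compared in KGN cells, a line from a human ovarian granulosa cell tumour, after siRNA against the long noncoding RNA SNHG5. They were FOS, FOSB, FOSL1 and FOSL2 of the FOS subfamily, JUN, JUNB and JUND of the JUN subfamily, ATF3, and the small MAF genes MAFF and MAFK. They were chosen by symbol, and all 10 were found among the 20030 genes of the count table. The 2 groups had 3 libraries each, made from RNA taken 48 h after transfection. In 1 group the cells carried the genotype label SNHG5 knockdown and received siRNA against SNHG5, and in the other they were labelled WT and received a negative control siRNA. Both groups shared the line, the medium and the transfection. The labels did not give the number or the sequence of the siRNAs. KGN is a tumour line and a transient knockdown was used, so the values hold for that setting. SNHG5 RNA was not analysed here, and the depth of the knockdown is therefore not given.

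AP-1 is a family of transcription factors whose subunits act in pairs through leucine zippers. JUN proteins pair with themselves or with FOS proteins, FOS proteins need a partner, and ATF3 joins JUN proteins or acts as a repressor on its own. Small MAF proteins have a DNA-binding zipper but no activation domain, and pair with FOS proteins or with the NFE2-related factors. Many of these genes are immediate-early genes, transcribed within minutes of a growth factor or stress signal through MAP kinases, and in the granulosa cells of the ovary AP-1 subunits respond to gonadotropins. JUN favours proliferation in many cells, and JUNB often opposes it by competing for the same partners.

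With SNHG5 siRNA, JUNB, ATF3 and MAFK fell, and MAFF and JUN rose. JUNB fell most, to 5.45 ± 0.394 CPM with SNHG5 siRNA, against 11.1 ± 1.00 CPM with control siRNA (mean ± SD, n = 3 each; CPM are counts scaled to library size by TMM). MAFF rose 1.40-fold and ATF3 was 1.34-fold lower. The differences of JUN and MAFK were smaller, with log2 fold changes of 0.13 and -0.17. FOS, FOSL1, FOSL2 and JUND did not pass, and FOSB was too low to test. The threshold was an adjusted p of 0.05 from the quasi-likelihood test of edgeR, adjusted by Benjamini-Hochberg over all 12508 genes tested. In bulk RNA, fewer cells expressing a gene and less of its RNA per cell cannot be told apart.

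Of the 9 AP-1 genes tested, 5 passed, 2 higher and 3 lower, where 40.2% of all genes tested passed, 20.3% higher and 19.9% lower. Against that background the count of 5 in 9 is not read as a property of the AP-1 genes. The median log2 fold change of the 9 was -0.08, against -0.01 over all genes tested. These same 5 genes had CPM without overlap between the groups, where that held for 49.8% of all genes tested. JUNB was the 1 gene of the 10 that passed and was at least 2-fold lower in this fit, as were 1.50% of all genes tested. Its 95% interval, -1.27 to -0.79 on the log2 scale, also held differences under 2-fold.

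**Figure D1:**
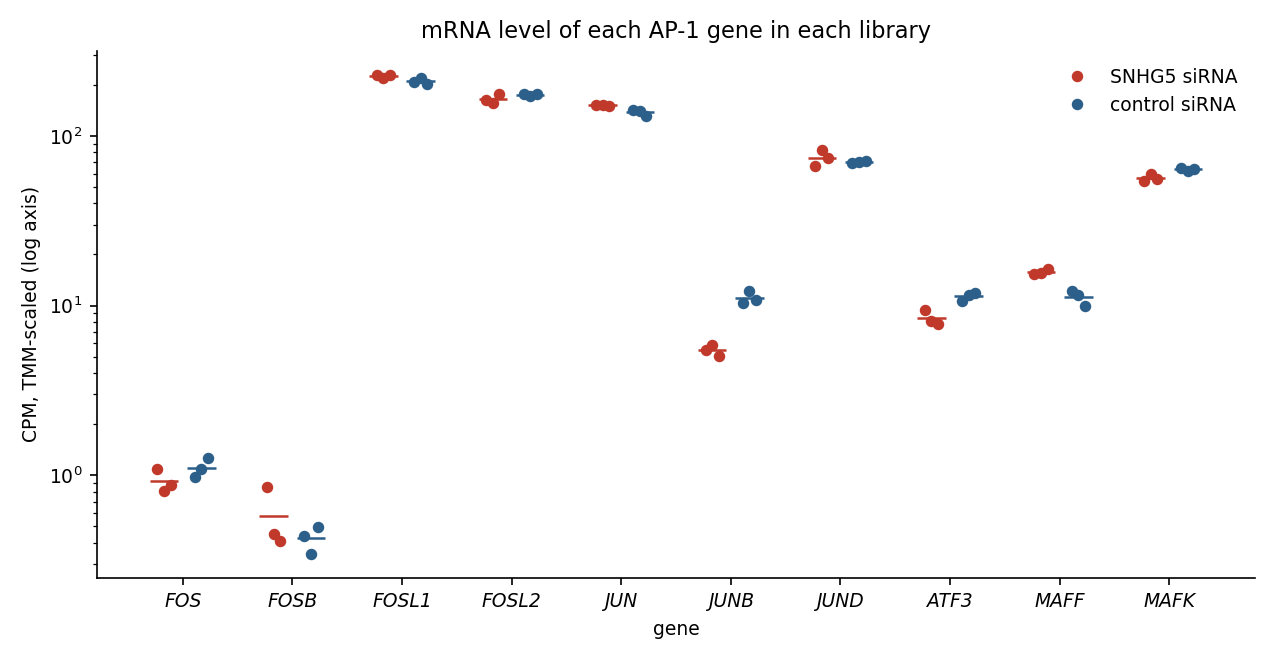
CPM of the 10 AP-1 genes (log axis) in each library, with SNHG5 siRNA left of control siRNA for each gene; points are libraries and bars are group means. The groups are apart in JUN, JUNB, ATF3, MAFF and MAFK, and they overlap in the other genes.

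Total counts were 18232634 to 22088913 per library, and the detection floor of 3 counts came to 0.135 to 0.165 CPM. Floors and intervals of count ratios cover counting error only. Spearman correlations of log2 CPM between libraries were 0.996 to 0.998 for libraries of 1 group and 0.987 to 0.989 for libraries of different groups. SNHG5 siRNA replicate 2 stood apart, with 7.40 and 7.58 chi-square units per degree of freedom against its replicates, where the other pair of its group had 1.81 and the control pairs had 2.79 to 3.87. The value of each tested AP-1 gene is therefore also given without it. FOXL2, the granulosa cell transcription factor, was at 28.6 ± 4.33 CPM with SNHG5 siRNA and 25.3 ± 1.40 CPM with control siRNA, while CYP19A1, the aromatase that makes oestrogen, was near the floor at 0.358 ± 0.177 CPM with SNHG5 siRNA and 0.235 ± 0.0657 CPM with control siRNA. Of 16 granulosa markers 12 were tested, 2 passed higher (INHBB and KRT8) and 4 lower (FSHR, NR5A2, GATA4 and KRT18), so 50% passed, where 40.2% of all genes tested did. Their summed level was 2737 to 3014 CPM with SNHG5 siRNA and 3625 to 3755 CPM with control siRNA, most of it KRT18. Of 16 markers of other ovarian cell types 7 were tested and 0 passed by edgeR (2 at an unadjusted p under 0.05) or DESeq2, while 1 (CD68) passed by limma on FPKM, with summed levels of 99.8 to 102 CPM with SNHG5 siRNA and 94.9 to 101 CPM with control siRNA. The most abundant of these were PDGFRA and ACTA2, and CYP17A1, INSL3, LHCGR, CD3E, CDH5 and LUM were at 0 in every library. The part of the lower summed level of the granulosa markers in the results on AP-1 genes was not tested.

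The promoters of 4 of the 5 genes that passed are shown here, since AP-1 subunits are known to bind such elements in each other's promoters. Each line holds the 250 bases before a RefSeq transcription start (GRCh38.p14), 5′ to 3′ on the gene's strand, in lower case. Capitals mark TGACATCA, the AP-1-like element of the JUN promoter, or TGACGTCA, the cAMP response element that ATF and JUN pairs bind.
JUNB promoter (chr19:12791236-12791485, plus strand): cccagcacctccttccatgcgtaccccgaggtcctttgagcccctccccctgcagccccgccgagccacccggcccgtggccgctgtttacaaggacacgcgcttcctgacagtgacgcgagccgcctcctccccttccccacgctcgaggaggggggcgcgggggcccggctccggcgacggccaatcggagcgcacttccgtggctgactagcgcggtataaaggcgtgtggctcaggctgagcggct
JUN promoter (chr1:58784048-58784297, minus strand): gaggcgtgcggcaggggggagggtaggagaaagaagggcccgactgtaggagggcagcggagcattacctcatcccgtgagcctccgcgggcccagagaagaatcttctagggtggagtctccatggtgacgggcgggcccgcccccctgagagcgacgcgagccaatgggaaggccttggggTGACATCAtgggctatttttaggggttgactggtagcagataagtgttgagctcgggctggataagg
ATF3 promoter (chr1:212565157-212565406, plus strand): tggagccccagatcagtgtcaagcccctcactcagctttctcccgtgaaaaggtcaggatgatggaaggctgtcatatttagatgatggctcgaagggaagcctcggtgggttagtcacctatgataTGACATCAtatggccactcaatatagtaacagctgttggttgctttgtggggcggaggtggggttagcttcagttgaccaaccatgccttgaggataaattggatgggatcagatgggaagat
MAFF promoter (chr22:38201744-38201993, plus strand): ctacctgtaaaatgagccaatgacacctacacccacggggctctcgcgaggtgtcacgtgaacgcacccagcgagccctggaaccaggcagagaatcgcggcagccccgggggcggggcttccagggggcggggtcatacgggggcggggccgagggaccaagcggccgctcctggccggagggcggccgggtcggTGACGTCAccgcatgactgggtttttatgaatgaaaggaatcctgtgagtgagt
These elements were searched on both strands with TGACTCA, the classical AP-1 element, and the CArG box, the site of serum response factor, in windows that ran to 50 bases past the start. JUN held TGACATCA centred 63 bases before its start. ATF3 held it 119 bases before the first of its 2 listed starts, and MAFF held TGACGTCA 50 bases before the first of its 2 listed starts. Promoters at starts that were not listed, bases further upstream and inexact forms of the elements were not searched. JUNB, which changed most, held none of the 4 motifs in its window. Of the other members, JUND held TGACGTCA 196 bases before its start and FOSL2 held TGACTCA just past its start. FOS and FOSB held no exact match in their windows, which does not show that their promoters lack such sites. FOSL1 and MAFK had no window in the table. In all, 5 of 10 windows of 8 genes held a motif, while 10.3% of 35116 windows of that length did. The shares of all windows were 4.95% for TGACTCA, 1.85% for TGACGTCA, 2.61% for TGACATCA and 1.29% for the CArG box. TGACATCA was included as the element of the JUN promoter, so the match in JUN was set in advance. ATF3 and MAFF each gave 2 of the windows. The count of windows with a motif is therefore not read as a property of the AP-1 genes. Both members that rose and members that fell held a motif, and a match is a string of letters, not a bound site.

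JUNB encodes the JUN protein that activates weakly and often restrains JUN. It lies on the plus strand of chromosome 19, from 12791496 to 12793315 (GRCh38, GENCODE v29). Its level was 5.46, 5.83 and 5.045 CPM in SNHG5 siRNA replicates 1, 2 and 3, and 10.4, 12.3 and 10.8 CPM in control siRNA replicates 1, 2 and 3. Every SNHG5 siRNA library was thus far below every control library, and replicate 2, the library that stood apart, was the highest of its group. The log2 fold change was -1.03 ± 0.11 (SE), with a 95% interval of -1.27 to -0.79 (edgeR, adjusted p = 8.83e-07). JUNB was thus 2.04-fold lower with SNHG5 siRNA. Without SNHG5 siRNA replicate 2 the log2 fold change was -1.08. The counts behind it were 121, 116 and 98 with SNHG5 siRNA, against 212, 249 and 196 with control siRNA. HOOK2, on the opposite strand, shares 259 exonic bases with JUNB, 14.2% of JUNB's exons. HOOK2 was at 8.25 ± 0.498 CPM with SNHG5 siRNA and 10.7 ± 0.559 CPM with control siRNA, with a log2 fold change of -0.38 (edgeR, adjusted p = 0.00546). Whether counting used strand was not given in the sources used here, so reads from the shared bases could go to either gene.

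JUN encodes c-Jun, the strongest activator of the family, and lies on the minus strand of chromosome 1, from 58780788 to 58784327. It was at 151, 152 and 151 CPM in the SNHG5 siRNA libraries and 142, 140.5 and 131 CPM in the control siRNA libraries. The SNHG5 siRNA libraries lay close together and above all controls, and control replicate 3 was lowest. The log2 fold change was 0.13 ± 0.05 (SE; 95% interval 0.03 to 0.24), and edgeR gave an adjusted p of 0.0459, just under the threshold. The call ended on leaving out any library except SNHG5 siRNA replicate 2, while the log2 fold change stayed between 0.10 and 0.16. It was 0.16 without control replicate 1 (adjusted p = 0.0666), 0.15 without control replicate 2 (0.0837) and 0.10 without control replicate 3 (0.139). It was 0.13 without SNHG5 siRNA replicate 1 (adjusted p = 0.113), 0.14 without SNHG5 siRNA replicate 3 (0.0936) and 0.13 without SNHG5 siRNA replicate 2 (0.0260). With upper quartile scaling the log2 fold change of JUN was 0.09 (adjusted p = 0.168), so the call, but not the direction, also depended on the scaling.

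JUND encodes the most constant of the JUN proteins, tied to quiescence in many cells, and lies on the minus strand of chromosome 19, from 18279760 to 18281622. It was at 66.3, 82.5 and 74.1 CPM with SNHG5 siRNA and 69.4, 69.7 and 70.6 CPM with control siRNA. The control libraries were nearly equal, while the SNHG5 siRNA libraries spread on both sides of them and the highest value came from replicate 2. Its log2 fold change was 0.09 ± 0.07 (SE; 95% interval -0.06 to 0.23; edgeR adjusted p = 0.331), and 0.01 without that library.

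JUNB took a smaller part of the JUN subfamily in every SNHG5 siRNA library than in any control library. The ratio of JUN counts to JUNB counts was 26.1 to 29.8 with SNHG5 siRNA and 11.5 to 13.7 with control siRNA, and the ratio of JUND to JUNB counts was 12.1 to 14.7 with SNHG5 siRNA and 5.68 to 6.71 with control siRNA. Such ratios do not depend on the scaling of a library. In FPKM, which the authors scaled to gene length and so allow levels to be set side by side between genes, JUNB made up 3.07% ± 0.227 of the summed JUN subfamily with SNHG5 siRNA and 6.32% ± 0.559 with control siRNA (SD, n = 3 each), and the groups did not overlap. JUND made up 56.4% ± 2.95 and JUN 40.6% ± 2.90 with SNHG5 siRNA, against 53.8% ± 2.05 and 39.9% ± 2.17 with control siRNA, and for both genes the groups overlapped. With 3 libraries against 3, an exact 2-sided permutation test of such a value cannot go below 0.1.

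**Figure D2:**
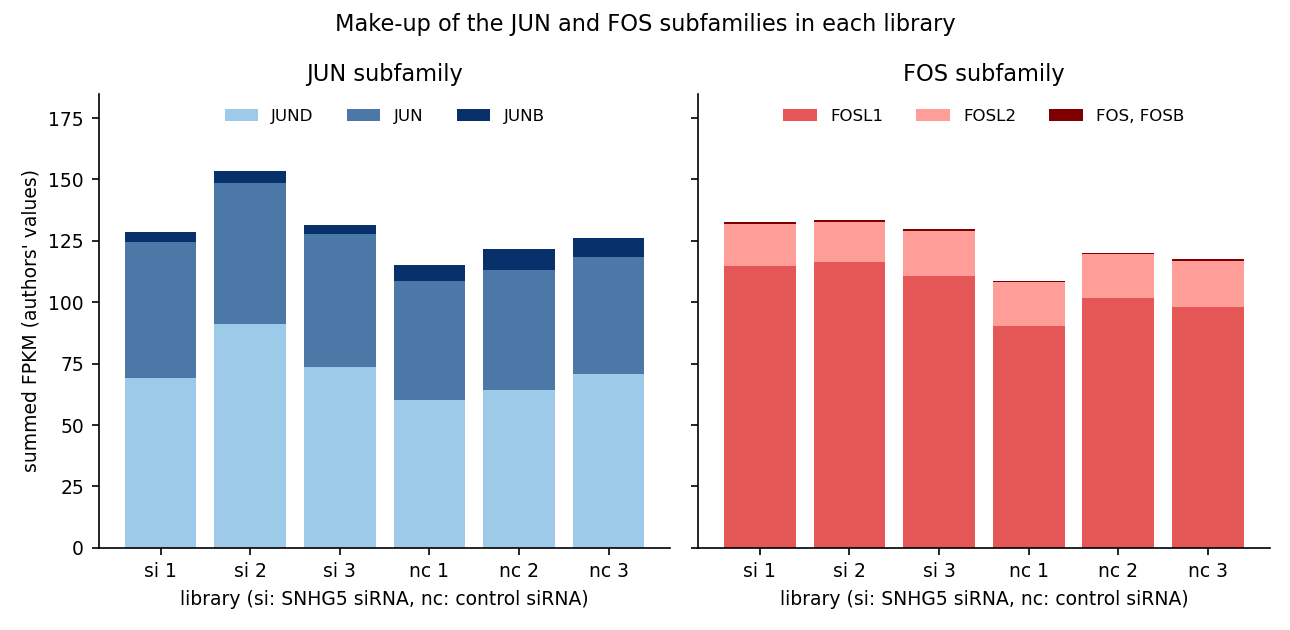
Stacked FPKM of the JUN subfamily (left) and the FOS subfamily (right) in each library, SNHG5 siRNA (si) left of control siRNA (nc). JUNB is the thin band that makes up 3.07% of the JUN subfamily with SNHG5 siRNA and 6.32% with control siRNA, and FOSL1 fills most of the FOS subfamily in all libraries.

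FOSL1 encodes FRA-1, a FOS protein that persists in growing and transformed cells, and was the AP-1 gene with the highest level per length. It lies on the minus strand of chromosome 11, from 65892049 to 65900573. In FPKM it averaged 114 ± 2.86 with SNHG5 siRNA and 96.8 ± 5.91 with control siRNA. In CPM it was at 227, 219 and 229 with SNHG5 siRNA and 207, 220 and 202 with control siRNA, and control replicate 2 lay just above SNHG5 siRNA replicate 2. Its log2 fold change was 0.10 ± 0.05 (SE; 95% interval -0.01 to 0.21; edgeR adjusted p = 0.121). FOSL1 passed without SNHG5 siRNA replicate 2 (log2 fold change 0.12, edgeR adjusted p = 0.0282) and in FPKM (0.23 on the log2(FPKM + 1) scale, limma adjusted p = 0.00985). It also passed with a trend on transcript length removed (0.13, edgeR adjusted p = 0.0373) or one on GC content removed (0.19, edgeR adjusted p = 0.00462). In all it passed under 7 of 16 alternative fits. Whether FOSL1 differed thus depends on the libraries, the table and the trend removal used.

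FOSL2 encodes FRA-2, its close relative, and lies on the plus strand of chromosome 2, from 28392448 to 28417312. It was at 163, 156 and 177 CPM with SNHG5 siRNA and 176, 172 and 177 CPM with control siRNA. The highest SNHG5 siRNA library reached the controls and the other SNHG5 siRNA libraries lay below them. Its log2 fold change was -0.08 ± 0.05 (SE; 95% interval -0.20 to 0.03; edgeR adjusted p = 0.232), and without SNHG5 siRNA replicate 2 it was -0.04. The series title names miR-92a-3p, and FOSL2 was the 1 member of 10 with its 7-base site GTGCAAT in an annotated 3′ UTR, a site that 14.2% of 12292 tested genes with a 3′ UTR carried. The mature miRNA is shown with its seed, bases 2 to 8, in capitals (RefSeq, GRCh38.p14), and the FOSL2 stretch with the complementary site in capitals (GENCODE v29).
miR-92a-3p: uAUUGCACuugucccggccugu
FOSL2 site: aaggggacaaaGTGCAATacagagccttc
A microRNA bound at such a site lowers its target RNA or its translation. FOSL2 mRNA did not pass in either direction, and protein was not measured. Whether miR-92a-3p acts at this site in these cells was not tested.

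FOS, the founding member and the best known immediate-early gene of the family, lies on the plus strand of chromosome 14, from 75278774 to 75282230. It was low, at 1.08, 0.805 and 0.875 CPM with SNHG5 siRNA and 0.977, 1.08 and 1.26 CPM with control siRNA, from 57 counts in all with SNHG5 siRNA and 65 with control siRNA. The groups overlapped. The log2 fold change of -0.25 ± 0.28 had a 95% interval of -0.84 to 0.34 (edgeR, adjusted p = 0.510), and a difference inside that interval was not detectable at this depth. Without SNHG5 siRNA replicate 2 it was -0.16. FOSB, on the plus strand of chromosome 19 from 45467995 to 45475179, encodes a close relative of FOS and gave fewer reads still, with 19, 9 and 8 counts with SNHG5 siRNA and 9, 7 and 9 counts with control siRNA. One SNHG5 siRNA library held more than the others, which all lay together. The ratio of its scaled counts was 1.38 (exact 95% interval 0.807 to 2.40, counting error only), with an exact 2-sided permutation p of 0.5.

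FOSL1 made up 86.3% ± 0.893 of the FPKM of the FOS subfamily with SNHG5 siRNA and 83.8% ± 0.887 with control siRNA, and the groups did not overlap. FOSL2 made up 13.3% ± 0.897 with SNHG5 siRNA and 15.6% ± 0.873 with control siRNA. FOSL1 and FOSL2 made up nearly all of the subfamily, so this share mirrors that of FOSL1 and is not a separate result. By edgeR on the counts, neither gene passed. In counts, the ratio of FOSL1 to FOSL2 counts was 1.30 to 1.41 with SNHG5 siRNA and 1.14 to 1.28 with control siRNA. FOS made up 0.329% ± 0.0622 with SNHG5 siRNA and 0.440% ± 0.0501 with control siRNA, and those groups overlapped.

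ATF3 encodes a factor that is induced by the integrated stress response and by p53, and that represses as a pair with itself. It lies on the plus strand of chromosome 1, from 212565334 to 212620777. Its level was 9.39, 8.10 and 7.77 CPM in the SNHG5 siRNA libraries and 10.65, 11.6 and 11.8 CPM in the control siRNA libraries. All SNHG5 siRNA libraries were below all controls, with replicate 1 nearest to them. The log2 fold change was -0.43 ± 0.10 (SE), with a 95% interval of -0.64 to -0.21 (edgeR, adjusted p = 0.00311). Without SNHG5 siRNA replicate 2 it was -0.39.

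MAFF and MAFK encode small MAF proteins, closely related factors that repress when paired with each other and activate when paired with an NFE2-related factor. MAFF lies on the plus strand of chromosome 22, from 38200767 to 38216511. It was at 15.4, 15.5 and 16.4 CPM with SNHG5 siRNA and 12.1, 11.5 and 10.0 CPM with control siRNA, and every SNHG5 siRNA library was above every control. Its log2 fold change was 0.49 ± 0.09 (SE; 95% interval 0.30 to 0.68; edgeR adjusted p = 3.17e-04). It was 0.50 without SNHG5 siRNA replicate 2.

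MAFK, on the plus strand of chromosome 7 from 1530714 to 1543043, was at 54.2, 59.5 and 55.9 CPM with SNHG5 siRNA and 64.7, 62.0 and 64.0 CPM with control siRNA. The groups did not overlap, with SNHG5 siRNA replicate 2 nearest to the controls. Its log2 fold change was -0.17 ± 0.06 (SE; 95% interval -0.29 to -0.05; edgeR adjusted p = 0.0282), which is 1.12-fold lower. It was -0.20 without SNHG5 siRNA replicate 2. MAFK kept its call under 7 of 16 alternative fits, the fewest of the 5. In FPKM, MAFK averaged 18.6 ± 1.32 with SNHG5 siRNA and 19.2 ± 1.18 with control siRNA, with a log2 difference of -0.04 (limma, adjusted p = 0.661), and with the trend on GC content removed it had a log2 fold change of -0.06 (edgeR, adjusted p = 0.414). The call also ended, at log2 fold changes of -0.16 to -0.14, without control replicate 1 (-0.16, adjusted p = 0.101), control replicate 3 (-0.16, 0.0636), SNHG5 siRNA replicate 1 (-0.14, 0.139) or SNHG5 siRNA replicate 3 (-0.16, 0.0833). TMEM184A, on the opposite strand, shares 809 exonic bases with MAFK, 18.1% of its exons, and had a log2 fold change of -0.45 (edgeR, adjusted p = 0.00613). The ratio of MAFK to MAFF counts was 3.42 to 3.84 with SNHG5 siRNA and 5.34 to 6.40 with control siRNA.

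**Figure D3:**
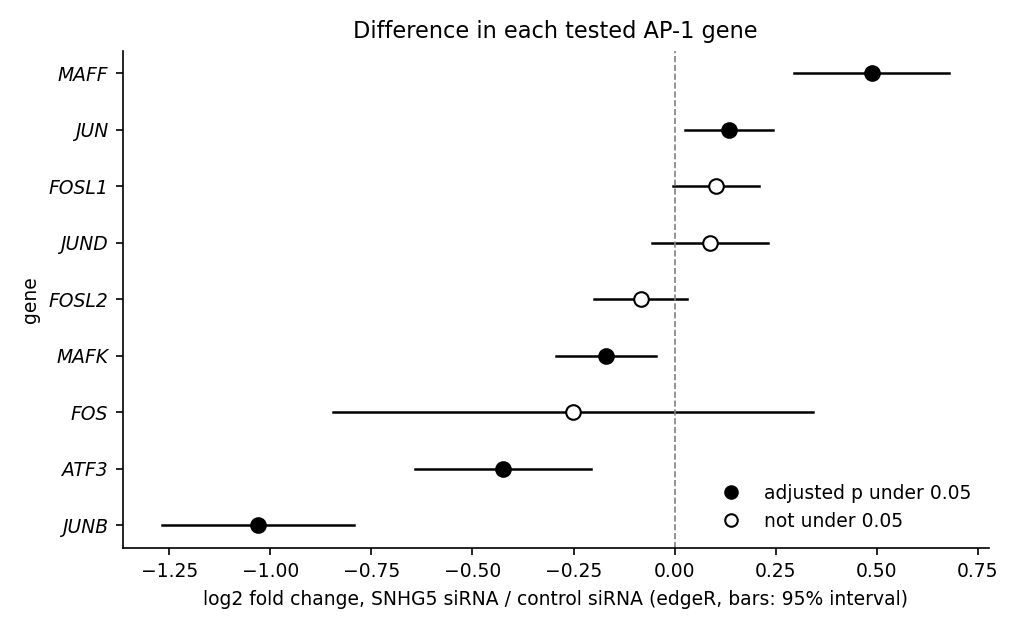
Log2 fold change (SNHG5 siRNA over control siRNA, edgeR) of the 9 tested AP-1 genes with 95% intervals; filled points passed at an adjusted p under 0.05. JUNB lies at -1.03, ATF3 at -0.43 and MAFF at 0.49, and the interval of FOS, the gene with the fewest counts, is the widest.

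Over 12348 genes, Spearman's correlation between GC content and log2 fold change was -0.221, a description across genes that are not replicates, and 9 of the 10 AP-1 genes had a GC content above the 47.9% median of tested genes. With that trend removed JUNB had -0.91, ATF3 -0.45 and MAFF 0.59 on the log2 scale, and JUND (0.24, edgeR adjusted p = 0.00657) and FOSL1 (0.19, edgeR adjusted p = 0.00462) passed as higher.

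**Figure D4:**
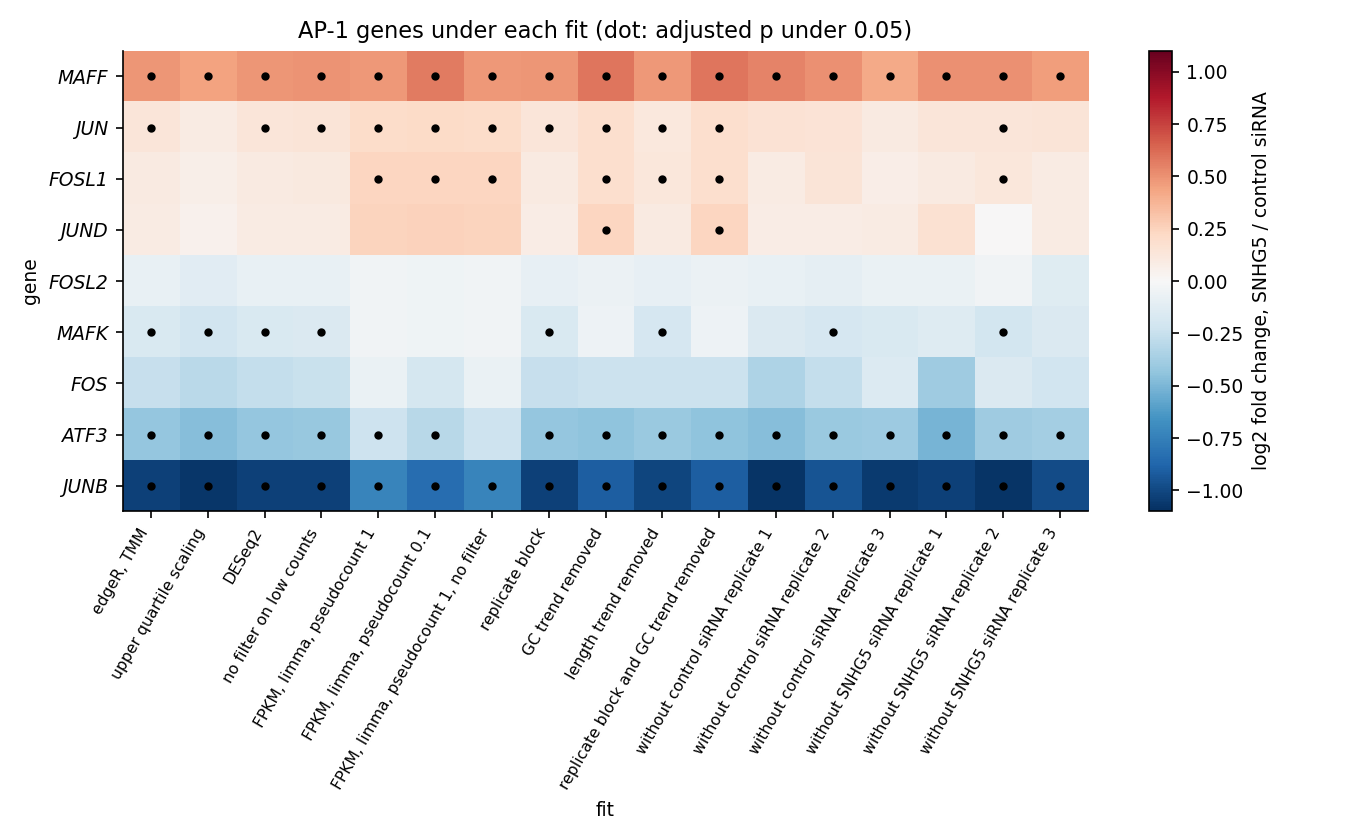
Log2 fold change (SNHG5 siRNA over control siRNA, colour) of each tested AP-1 gene under the reported fit and 16 alternatives, with a dot where the adjusted p was under 0.05. JUNB and MAFF carry a dot in every column, and JUN and MAFK lose it in several.

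Per length, the order of the members with control siRNA was FOSL1 at 96.8 ± 5.91 FPKM, JUND at 65.2 ± 5.32, JUN at 48.1 ± 0.804, MAFK at 19.2 ± 1.18, FOSL2 at 18.03 ± 0.406, JUNB at 7.65 ± 0.906, MAFF at 3.90 ± 0.356, ATF3 at 2.68 ± 0.287, FOS at 0.509 ± 0.0747 and FOSB at 0.110 ± 0.0292 (SD, n = 3 each). With control siRNA, MAFK and FOSL2 did not differ beyond their spread, and the other neighbours were apart by more than their SDs. With SNHG5 siRNA, MAFF at 5.82 ± 0.154 FPKM stood above JUNB at 4.24 ± 0.521 FPKM, so this pair had changed places. The summed FPKM of the 10 genes was 296 ± 16.1 with SNHG5 siRNA and 262 ± 11.6 with control siRNA, without overlap, and FOSL1, JUND and JUN made up most of it. The FPKM table was not a fixed multiple of the counts, and with edgeR on the counts as reported here neither FOSL1 nor JUND passed.

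The proteins that pair with these subunits were taken from a list of 20 genes, of which 16 were tested. Of them 3 rose, 8 fell and 5 did not pass, so 68.8% passed, where 40.2% of all genes tested did. The median log2 fold change was -0.16, against -0.01 over all genes tested. BATF3, a JUN partner of immune cells, was at 5.02 ± 1.16 CPM with SNHG5 siRNA and 3.06 ± 0.390 CPM with control siRNA, with a log2 fold change of 0.71 (edgeR, adjusted p = 0.00368). NFE2L1, a small MAF partner that drives proteasome genes, was at 271 ± 11.3 CPM with SNHG5 siRNA and 197 ± 5.76 CPM with control siRNA (log2 fold change 0.46, edgeR adjusted p = 9.67e-07). ATF7, a relative of ATF2 that pairs with JUN, rose by 0.31 on the log2 scale. Among those that fell were NFE2L3 (-0.33, edgeR adjusted p = 6.94e-05), MAF (-0.96, edgeR adjusted p = 0.00602) and NFE2, the founding small MAF partner. NFE2 had 13 counts in all with SNHG5 siRNA, near the floor at 0.211 ± 0.0547 CPM, and 58 counts with control siRNA, at 0.985 ± 0.129 CPM. The ratio of its scaled counts was 0.215 (exact 95% interval 0.108 to 0.397, counting error only). It passed the filter on low counts only through the control libraries, so its size is given as a description.

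Of 32 kinases and factors upstream of AP-1, all tested, 6 rose, 3 fell and 23 did not pass, so 28.1% passed, where 40.2% of all genes tested did. Their median log2 fold change was 0.05, against -0.01 over all genes tested. ELK4, a ternary complex factor that acts with serum response factor on immediate-early genes, was at 68.5 ± 2.08 CPM with SNHG5 siRNA and 46.9 ± 1.68 CPM with control siRNA (log2 fold change 0.55, edgeR adjusted p = 5.97e-07). Its relative ELK3 rose by 0.27 on the log2 scale. MAPK14, the p38 alpha kinase, had 0.34 (edgeR, adjusted p = 4.90e-05), while MAP2K3, a kinase that activates p38, had -0.31 (edgeR, adjusted p = 1.79e-04). MAP2K7, which activates JNK, the kinase of JUN, had 0.28 (edgeR, adjusted p = 0.00341), and MAP3K1, further up the same cascade, had -0.30 (edgeR, adjusted p = 0.00216).

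Of 24 other immediate-early genes 20 were tested, 4 rose, 9 fell and 7 did not pass, so 65% passed, where 40.2% of all genes tested did (20.3% higher and 19.9% lower). Their median log2 fold change was -0.20, against -0.01 over all genes tested. CCN2, which encodes a matrix protein, was at 1105 ± 82.5 CPM with SNHG5 siRNA and 1563 ± 99.8 CPM with control siRNA (log2 fold change -0.50, edgeR adjusted p = 1.27e-06). BTG2, an antiproliferative p53 target, was at 21.8 ± 1.95 CPM with SNHG5 siRNA and 33.3 ± 0.870 CPM with control siRNA (log2 fold change -0.61, edgeR adjusted p = 6.73e-06). IER3, a survival gene, fell by 0.50 on the log2 scale (edgeR, adjusted p = 8.19e-04), and ARC, known from neurons, fell by 0.89 (edgeR, adjusted p = 0.0473) at a low level with groups that overlapped. DUSP5, a phosphatase of nuclear ERK, was at 30.8 ± 0.327 CPM with SNHG5 siRNA and 19.3 ± 1.14 CPM with control siRNA (log2 fold change 0.67, edgeR adjusted p = 1.50e-06). IER2 had a log2 fold change of 0.49 (edgeR, adjusted p = 2.66e-04).

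Of 26 textbook AP-1 target genes 20 were tested, 6 rose, 7 fell and 7 did not pass, so 65% passed, where 40.2% of all genes tested did. With upper quartile scaling 4 rose and 8 fell. The median log2 fold change was 0.06, against -0.01 over all genes tested. CCND1, which encodes cyclin D1, was at 625 ± 10.5 CPM with SNHG5 siRNA and 1022 ± 18.9 CPM with control siRNA (log2 fold change -0.71, edgeR adjusted p = 5.97e-10). SPP1, which encodes osteopontin, had a log2 fold change of 0.64 (edgeR, adjusted p = 1.13e-06), and CXCL8, a chemokine, had 0.53 (edgeR, adjusted p = 0.0191). PTGS2, the inducible cyclooxygenase of ovulating follicles, was low at 1.18 ± 0.151 CPM with SNHG5 siRNA and 0.551 ± 0.195 CPM with control siRNA, from 73 counts in all with SNHG5 siRNA and 32 with control siRNA. It passed the filter on low counts only through the SNHG5 siRNA libraries, so these values are given as a description.

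**Figure D5:**
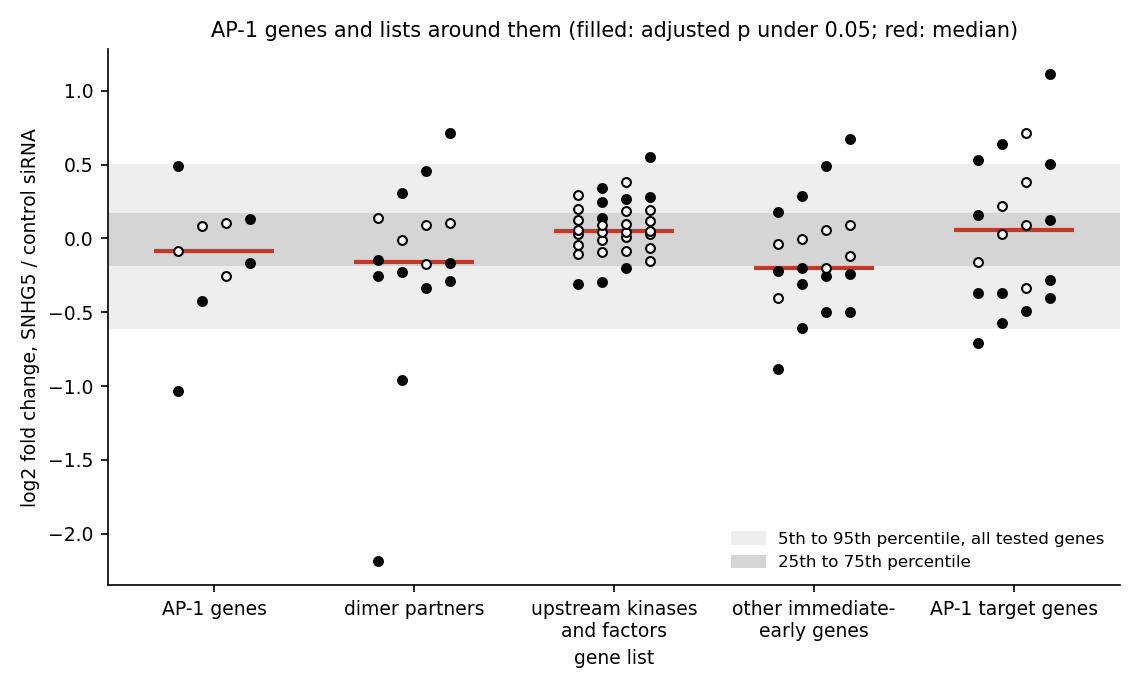
Log2 fold change (SNHG5 siRNA over control siRNA) of each tested gene in the AP-1 group and in the lists around it, filled where the adjusted p was under 0.05, with the median of each list as a red line. Grey bands span the percentiles 25 to 75 and 5 to 95 of all tested genes. Medians run from -0.20 in the other immediate-early genes to 0.06 in the AP-1 targets, and every list holds genes on both sides of 0.

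Genes with the most similar profile over the 6 libraries were looked up among 10466 genes with a mean of at least 5 CPM, by Pearson's r of log2(CPM + 0.5), as a description that the split between the groups can set. For MAFK they were DDX58 (r = 0.997) and ATF4 (0.996), the factor of the integrated stress response, and for ATF3 they were TPMT (0.992) and TSR1 (0.988). For FOSL1 they were JMJD8 (0.988) and GRAMD4 (0.984), and for JUND they were PTOV1 (0.983) and NDUFA8 (0.965). For JUNB, added after its values were seen, they were DNAAF5 and RRP9 (both 0.999), and 580 genes had an r over 0.95 with it, against 4 for JUND.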

How the data were processed

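RNA was profiled by mRNA sequencing of KGN cells in 3 SNHG5 siRNA and 3 control siRNA libraries, built with a SMARTER kit from 1.0 µg of total RNA, per the labels. Trimmomatic and the genome build GRCh38 are named in the submitters' processing notes. The aligner, the counter, the annotation and the strand setting are not given in the sources used here. Raw counts per gene, whole numbers with no normalization, were deposited by the authors and gave every main value. The authors also deposited FPKM, scaled to gene length and library size, used for levels between genes and as an alternative. Columns of other samples numbered 0.

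Counts were scaled by TMM (factors 0.998 to 1.003) in edgeR 4.0.16 (R 4.3.3). A 2-sided quasi-likelihood test of SNHG5 siRNA over control siRNA was run in edgeR on the 12508 genes kept by filterByExpr, with Benjamini-Hochberg adjustment over all of them, and 7522 genes were not tested. Alternatives were upper quartile scaling, DESeq2 1.42.0, no filter, limma 3.58.1 on log2(FPKM + 1) or log2(FPKM + 0.1), a replicate block, removal of a GC or length trend (lowess span 0.3), and each library left out. In simulated counts with these libraries' spread, calls were made for 31 of 50 genes with a change of 1.25-fold, 47 of 50 with one of 1.5-fold, 49 of 50 with one of 2-fold and 7 of 12213 with none, among 12413 genes. The changed genes were drawn from the better-counted genes, so these rates do not cover low genes such as FOS. They were also a far smaller share than the 40.2% that passed in the data, which alters the adjustment of p. Python 3.11.15, numpy 2.4.6, pandas 2.3.3, scipy 1.17.1 and matplotlib 3.10.9 were used.

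The members and gene lists were chosen with earlier results of these data known. Named were all members, up to 6 passing genes in every list, those with the largest absolute log2 fold change (the 2 with the highest mean CPM where fewer than 2 passed), and the 2 genes most like FOSL1, JUND, MAFK and ATF3. Some genes this rule names are not reported here. The labels do not say that replicates were separate cultures, so p-values measure the spread between these samples, which may be technical. Replicate numbers were not taken to pair the samples.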

Additional observations from a re-analysis of the deposited data

How the results depend on the processing

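JUNB and MAFF passed under all 16 alternatives, with log2 fold changes of -1.08 to -0.72 and 0.42 to 0.59. JUNB was less than 2-fold lower in FPKM and with the GC trend removed, alone or with the replicate block. The same held without control replicate 2 or without SNHG5 siRNA replicate 3. ATF3 passed under 15 alternatives, ending in FPKM without a filter (-0.22, limma adjusted p = 0.0863). JUN passed under 10 and MAFK under 7 of the 16. No value of the tested members or of 24 other genes of the lists changed direction; 17 of those 24 kept their call throughout, and MAF, BATF3, ATF7, MAP2K3, ARC, PTGS2 and CXCL8 lost it at least once. The AP-1 genes that passed numbered 3 to 6 when 1 library was left out, and those higher 1 to 3; those higher were 1 with upper quartile scaling and 4 with the GC trend removed, alone or with the replicate block. In FPKM without a filter, 1 AP-1 gene passed as lower, as did 1564 of all genes, and 1 dimer partner passed as higher, 5 as lower, 1 upstream gene as lower and 5 immediate-early genes as lower. In FPKM with a filter, 1 upstream gene passed as lower with either pseudocount, and 5 dimer partners passed as lower with pseudocount 1. With the GC trend removed, alone or with the block, 10 upstream genes passed as higher. Of all genes 3581 to 5714 passed, 39.9% of them higher with upper quartile scaling and 50.5% with TMM, where upper quartile scaling put the median log2 fold change of all genes at -0.05. The causes of these changes were not tested. Same-numbered libraries deviated together with r of 0.05, 0.13 and 0.03, and pairs of unlike number had r of -0.12 to 0.08. SNHG5 siRNA replicate 3 went best with control replicate 1. With 3 libraries per group such small values cannot decide whether the numbers pair the samples. With the replicate block 5714 genes passed, against 5026 without it, and 5 AP-1 genes passed in both fits. Low counts limit FOS and FOSB.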

Other observations

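MAFG, the third small MAF gene, was not among the 10 genes and was singled out after its values were seen. It was at 70.4 ± 1.11 CPM with SNHG5 siRNA and 84.1 ± 3.86 CPM with control siRNA (SD, n = 3 each), with a log2 fold change of -0.26 (edgeR, adjusted p = 0.00128). In FPKM it was at 16.2 ± 0.243 with SNHG5 siRNA and 18.6 ± 0.518 with control siRNA, close to MAFK, so MAFF was the small MAF gene of lowest level and the 1 that rose. NFE2L2, which encodes the oxidative stress factor NRF2 and pairs with small MAF proteins, was at 119 ± 4.44 CPM with SNHG5 siRNA and 139 ± 5.93 CPM with control siRNA (log2 fold change -0.23, edgeR adjusted p = 0.00236). DDIT3, which encodes the stress factor CHOP, was at 28.4 ± 1.08 CPM with SNHG5 siRNA and 34.7 ± 1.69 CPM with control siRNA (log2 fold change -0.29, edgeR adjusted p = 0.00368), and ATF4 had a log2 fold change of -0.15 (edgeR, adjusted p = 0.0217). These genes were also picked after their values were seen.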
